A study of Homo sapiens with 8 samples.

Results

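The renal organic ion and drug transporters were taken as the gene symbols of the SLC22, SLCO and SLC47 families, and 36 of the 43682 symbols in the RNA count files met that naming rule. They comprised 22 SLC22A genes, 12 SLCO genes and the 2 SLC47A genes. The choice used names alone and no measured value. Symbols of pseudogenes, antisense genes and read-through genes of these families were not members.

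These carriers move charged metabolites and drugs across cell membranes. In the proximal tubule of the kidney, SLC22 organic anion and organic cation transporters take substrates up from the blood, apical SLC22 members exchange urate, and SLC47 multidrug and toxin extrusion proteins (MATE) release organic cations into the urine. Members with affinity for carnitine supply fatty acid oxidation, and the SLCO genes encode organic anion transporting polypeptides (OATP), which carry bile salts, steroid conjugates, thyroid hormone and many drugs.

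RNA came from UM-RC-2, an established clear cell renal cell carcinoma line that carries VHL p.Arg82Pro (c.245G>C) per the labels. VHL encodes the substrate-binding subunit of the ubiquitin ligase that degrades the alpha subunits of hypoxia-inducible factors. Lentivirus carried either VHL or a construct named VEC into these cells, and blasticidin at 10 µg/ml kept the stable lines of both groups. Each group had 2 libraries, numbered replicate 1 and replicate 2, and the labels do not say whether these were separate cultures, or whether the lines were pools or clones. Both replicate 1 libraries are labelled total RNA and both replicate 2 libraries polyA RNA, so RNA kind and replicate number cannot be told apart. With replicate number in the main model, the p-values measure only how the difference of VHL from VEC varies between the 2 replicate numbers. That spread, estimated partly from all genes, may be technical.

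VHL was therefore compared with VEC within each replicate number. Libraries held between 16230291 and 50027348 counts, and both replicate 2 libraries were deeper. Libraries of the same number were close and those of the same group were not, with Pearson's r across 21673 genes of 0.991 and 0.978 within the pairs against 0.502 and 0.531 within the groups, as a description over genes that are not independent. The share of counts on pseudogenes was 1.33% (VEC) and 2.04% (VHL) for replicate 1, but 31.2% and 24.9% for replicate 2. The introduced gene, VHL, gave 37.1 CPM (counts scaled to library size) with VEC against 146 with VHL in the first pair, and 88.9 against 151 in the second, a fitted log2 change of 1.36 ± 0.23 (edgeR adjusted p = 4.63e-07) in the model described below. DESeq2's Wald test with the same terms also called VHL (1.34, adjusted p = 0.0324). Without its independent filtering, in a run that also differed in gene filter and outlier cutoff, DESeq2 gave VHL 1.34 and an adjusted p of 0.0652. Of the 10 markers of renal epithelium and clear cell carcinoma, 9 were at 1 CPM or more in all 4 libraries, PAX8 between 40.8 and 75.9 CPM. The same held for 5 of the 9 proximal tubule markers, with LRP2 between 646 and 2617 CPM. All 4 endothelial markers had 0 counts in every library, and the summed hepatocyte markers lay between 0.536 and 7.50 CPM. The 4 leukocyte markers summed to 17.6 and 11.6 CPM in replicate 1 (VEC, then VHL) and to 43.9 and 38.5 CPM in replicate 2. Nearly all of this was CD68, while CD3E was at 0 throughout and PTPRC had 0 counts in replicate 1 and 72 and 63 in replicate 2. The 5 fibroblast markers summed to at most 0.490 CPM.

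Of the 36 transporters, 6 had 0 counts in all 4 libraries and 17, these included, had at most 20 counts in every library. A filter on low counts left 21 for testing. Between 24 and 27 members had at least 1 count in a library. SLCO4C1 alone held between 49.9% and 62.4% of the normalised counts of the 36, a share of counts that is not corrected for gene length. Because the filter can keep a gene on the strength of the group in which it is high, counts over the 21 describe them and support nothing further.

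In a model with group and replicate number as terms (edgeR quasi-likelihood F test, n = 2 libraries per group), 4 of the 21 tested transporters passed a Benjamini-Hochberg adjusted p of 0.05 over all 24417 tested genes. SLC22A3, SLCO2B1 and SLC47A2 rose and SLC22A7 fell in VHL cells. Over all tested genes 3.1% passed, 0.749% higher and 2.35% lower, and among the protein-coding ones 3.65%. DESeq2's Wald test with the same terms also called 4 members, where it called 8.33% of the genes it gave an adjusted p, but none was shared: SLC22A4, SLC22A5, SLC22A11 and SLC47A1, all lower. Its independent filtering on low counts left the 4 members called by edgeR with no adjusted p. Run without that filtering, on the genes edgeR tested and with no outlier cutoff, DESeq2 called 4.38% of the tested genes and 6 members. Of these SLC22A3, SLCO2B1 and SLC22A7 were also edgeR's (adjusted p = 0.0107, 0.00402 and 0.0444). All 4 have few counts, and in bulk RNA fewer cells of a type and less RNA per cell cannot be told apart. Without the replicate term 0 members and 0 genes passed (edgeR), where 0 of the 21 members and 22 of the 24417 genes had an unadjusted p under 0.05. With the term, 13 of the 21 had an unadjusted p under 0.05, against 12.5% of all tested genes. With protein-coding genes alone in that model, it was 13 of the 20 members tested and 2492 of 13710 genes. SLC22A18 was not tested there.

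The median fitted log2 change of the 21 was -0.22, beside -0.03 over all tested genes. CPM was lower in VHL in both pairs for 11 members and higher in both for 6, where 25.0% and 22.8% of all tested genes did so, or 29.1% and 29.9% of the tested protein-coding genes. The pairs pointed in opposite directions for 3 members, SLCO4C1 and SLCO5A1 among them, and SLC22A9 was read in replicate 2 alone. A log2 change of at least 1 in both pairs was found upward for 3 members (0.434% of all tested genes and 0.613% of the protein-coding ones) and downward for 2, SLC22A7 and SLC22A13 (1.31% and 1.53%).

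**Figure D1:**
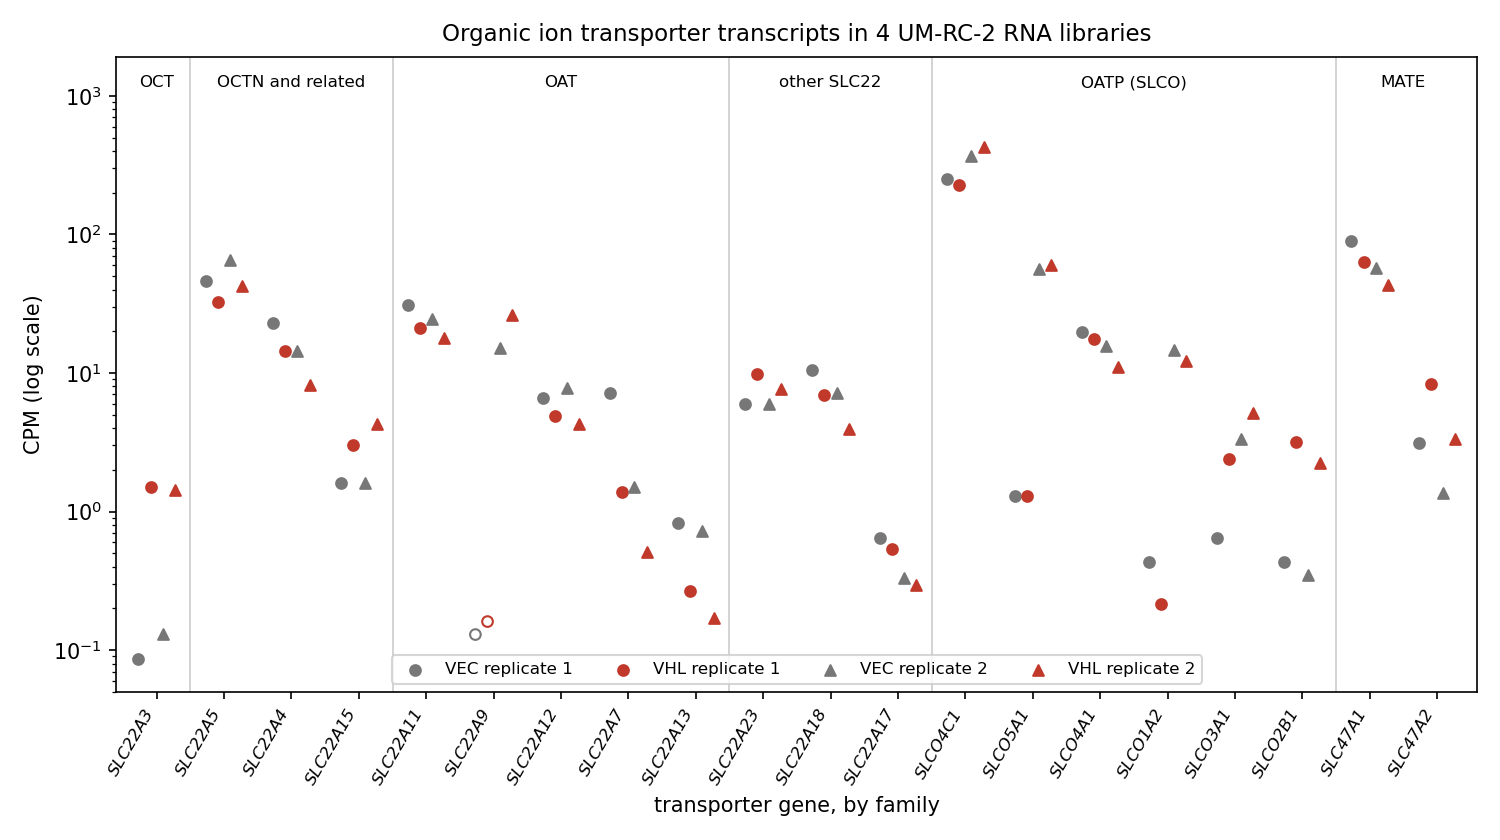
CPM on a log axis (y) of 20 of the 21 tested transporters (x, by family) in each RNA library. Grey symbols are VEC and red are VHL, circles replicate 1 and triangles replicate 2. Open circles mark a count of 0, drawn at the CPM of 3 counts. Both red points of SLC22A3, SLCO2B1 and SLC47A2 lie above the grey point of the same shape, and those of SLC22A7 below it.

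**Figure D2:**
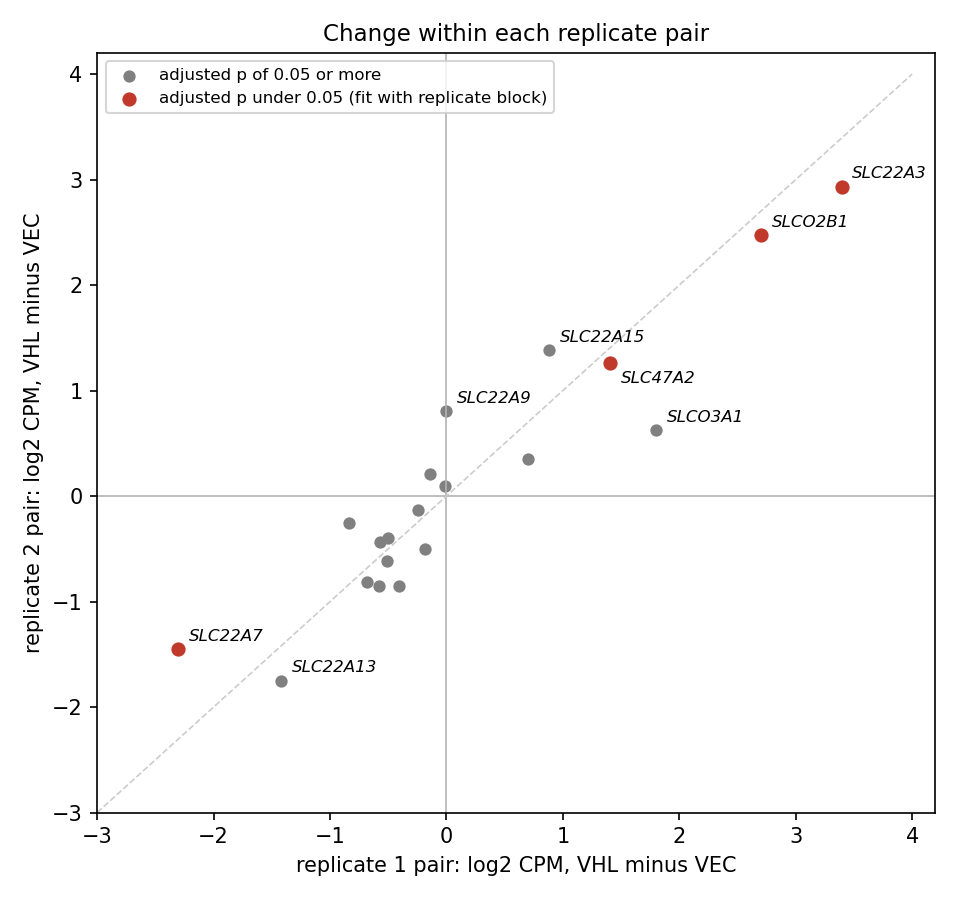
Difference in log2 CPM, VHL minus VEC, in the replicate 1 pair (x) and in the replicate 2 pair (y) for 20 of the 21 tested transporters, computed with a prior count of 2. Each point is a gene, red where the adjusted p was under 0.05, and the dashed line marks equal changes. SLC22A3 lies at 3.39 and 2.93, and SLC22A7 at -2.30 and -1.45.

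Promoter sequences are shown for 3 of the called members, because VHL acts on hypoxia-inducible factors, which bind the hypoxia response element cores ACGTG and GCGTG. RefSeq windows on GRCh38.p14, from 250 bases before to 50 after a start site, were given for 21 of the 36 members (27 windows). Neither the 2 windows of SLCO2B1 nor the window of SLC22A7 held a core on either strand. Of the 2 windows of SLC47A2, 1 held a single core. SLC22A4, called by DESeq2 but not by edgeR over all genes, is shown because its window held 3 matches. Of these 2 overlap as both strands of 1 palindrome. Capitals mark the matches.
SLCO2B1, chr11:75150857-75151156, plus strand: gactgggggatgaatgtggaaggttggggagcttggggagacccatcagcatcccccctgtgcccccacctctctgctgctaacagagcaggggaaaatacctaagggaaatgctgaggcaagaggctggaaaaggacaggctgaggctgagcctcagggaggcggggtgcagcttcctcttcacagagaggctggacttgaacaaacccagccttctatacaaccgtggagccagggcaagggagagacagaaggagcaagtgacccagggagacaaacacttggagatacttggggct
SLC22A7, chr6:43298010-43298309, plus strand: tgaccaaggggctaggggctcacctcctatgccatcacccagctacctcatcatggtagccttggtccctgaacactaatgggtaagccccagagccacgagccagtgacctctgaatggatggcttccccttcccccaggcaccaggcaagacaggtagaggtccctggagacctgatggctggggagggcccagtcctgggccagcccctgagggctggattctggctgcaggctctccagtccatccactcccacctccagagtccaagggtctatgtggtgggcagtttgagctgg
SLC47A2, upstream window, chr17:19718930-19719229, minus strand: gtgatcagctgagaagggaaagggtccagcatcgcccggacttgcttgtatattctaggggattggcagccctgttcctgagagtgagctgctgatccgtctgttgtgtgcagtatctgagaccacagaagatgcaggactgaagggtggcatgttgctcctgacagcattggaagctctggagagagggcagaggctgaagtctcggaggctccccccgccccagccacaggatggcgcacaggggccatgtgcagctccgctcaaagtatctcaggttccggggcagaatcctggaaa
SLC47A2, downstream window, chr17:19716535-19716834, minus strand: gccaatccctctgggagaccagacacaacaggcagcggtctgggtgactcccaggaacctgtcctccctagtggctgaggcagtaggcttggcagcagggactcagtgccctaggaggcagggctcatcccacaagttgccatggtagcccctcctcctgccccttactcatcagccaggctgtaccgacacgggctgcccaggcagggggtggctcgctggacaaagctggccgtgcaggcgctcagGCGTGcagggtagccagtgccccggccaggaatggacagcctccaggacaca
SLC22A4, chr5:132294144-132294443, plus strand: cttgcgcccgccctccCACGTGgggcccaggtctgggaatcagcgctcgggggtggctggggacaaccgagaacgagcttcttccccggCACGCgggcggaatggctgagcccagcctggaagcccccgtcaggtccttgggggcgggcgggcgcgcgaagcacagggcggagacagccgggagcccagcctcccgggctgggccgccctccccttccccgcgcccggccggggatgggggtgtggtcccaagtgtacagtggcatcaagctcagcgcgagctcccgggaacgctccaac

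A core was present in 8 of the 27 member windows (29.6%) and in 48.4% of all 35093 windows of the same length. Both cores contain the bases CG, and the median number of CG per window was 8 for members against 14 for all windows. The part of CG content in the lower share was not tested. A match describes letters in this window and is neither a bound site nor a cause.

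Organic cation transporters showed 1 change. SLC22A3, which encodes OCT3, a low-affinity carrier of monoamines and cationic drugs, had 2 counts with VEC against 28 with VHL in the first pair, and 6 against 58 in the second. These are 0.0864 and 1.5 CPM, and 0.132 and 1.42 CPM, so both VHL libraries stood above both VEC libraries. The ratio of VHL to VEC was 17.4 in replicate 1 (95% exact interval 4.38 to 150) and 10.8 in replicate 2 (4.67 to 30.6). These intervals, here and below, come from the binomial of the pair's counts and cover counting error only. The fitted log2 change was 3.63 ± 0.77 (SE, edgeR adjusted p = 0.000288). With so few VEC counts, SLC22A3 passed the filter through its VHL libraries, and a stricter filter left it untested. The VEC count of 2 in replicate 1 is also under the 3 counts that a count of 0 allows. The ratios and the p-value of SLC22A3 are therefore a description.

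SLC22A2 lies next to SLC22A3 in RefSeq's gene order. SLC22A2 encodes OCT2, the main basolateral uptake carrier for organic cations in the kidney, and had 1 and 1 counts in replicate 1 and 2 and 0 in replicate 2 (VEC, then VHL). It was not tested.

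The multidrug and toxin extrusion genes gave fitted changes of opposite sign, and 1 of the 2 passed the test. SLC47A2, which encodes MATE2, the proton-coupled exporter of organic cations described mainly in kidney, had 72 counts with VEC against 156 with VHL in the first pair, and 62 against 137 in the second. Its CPM went from 3.11 to 8.36 and from 1.36 to 3.35, a ratio of 2.69 (2.02 to 3.61) and 2.47 (1.81 to 3.39). The fitted log2 change was 1.36 ± 0.39 (edgeR adjusted p = 0.0224), a call that DESeq2 without independent filtering did not make (adjusted p = 0.0848). VEC replicate 1 lay close to VHL replicate 2, so the groups separate within the pairs and barely across them.

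SLC47A1, which encodes MATE1, the broadly expressed exporter of the same kind, had 2071 and 1178 counts in replicate 1 and 2614 and 1775 in replicate 2. It was at 89.5 and 63.1 CPM, and at 57.3 and 43.5 CPM, lower with VHL inside each pair while the groups overlapped across pairs. Its fitted log2 change was -0.45 ± 0.21 and did not pass (edgeR adjusted p = 0.325). DESeq2's Wald test with the same terms called it lower at -0.48 (adjusted p = 8.60e-05).

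The share of SLC47A2 among the counts of both MATE genes does not depend on library scaling. It was 3.36% (exact interval 2.64 to 4.21) in VEC and 11.7% (10.0 to 13.5) in VHL of replicate 1, and 2.32% (1.78 to 2.96) and 7.17% (6.05 to 8.41) in replicate 2. Both VHL libraries were above both VEC libraries. With 2 libraries per group this share was given no test, and it uses the same counts as the call of SLC47A2. For SLC22A4 in its sum with SLC22A5 the share fell with VHL, from 33.19% to 30.48% (replicate 1) and 18.01% to 16.03% (replicate 2). For SLC22A12 in its sum with SLC22A11 it rose from 17.43% to 19.05% in replicate 1 and fell from 24.27% to 19.36% in replicate 2. Neither had both VHL libraries above both VEC libraries. SLC47A1 and SLC47A2 are separated by ALDH3A2 in RefSeq's order of protein-coding genes. The pseudogenes SLC47A1P1 and SLC47A1P2 had at most 24 counts in a library, few beside those of SLC47A1, although the counting of reads shared between copies is not stated.

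**Figure D3:**
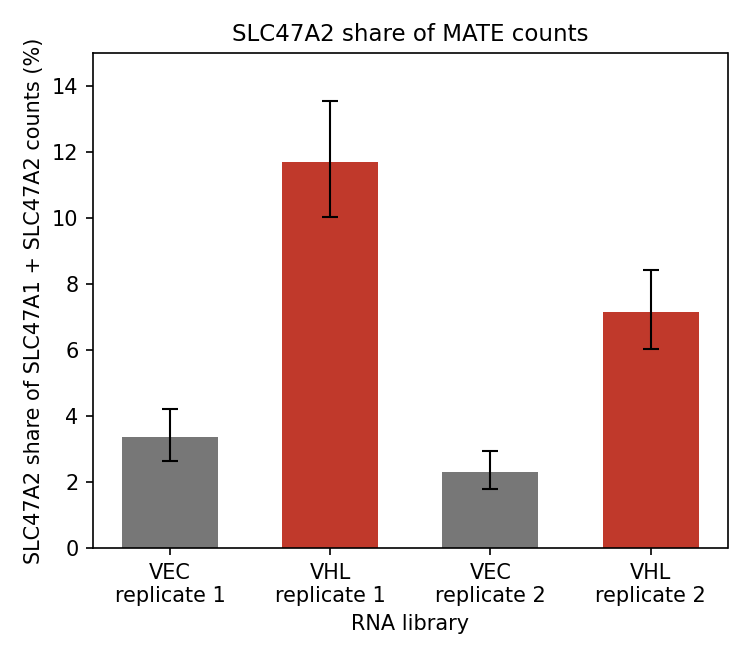
Share of SLC47A2 in the summed counts of SLC47A1 and SLC47A2 (y, percent) in each RNA library (x). Bars are single libraries, grey for VEC and red for VHL, and error bars are 95% exact binomial intervals, which cover counting error only. The VHL bars stand at 11.7% and 7.17% and the VEC bars at 3.36% and 2.32%.

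Of the 10 organic anion transporters (OAT), 5 were tested, and 1 fell and 0 rose in the edgeR model. CPM was lower in VHL in both pairs for 4, where 25.0% of all tested genes and 29.1% of the protein-coding ones did so. SLC22A7 encodes OAT2, a carrier of organic anions and nucleobases found in liver and kidney. Counts were 165 with VEC against 26 with VHL in the first pair, and 69 against 21 in the second. CPM went from 7.13 to 1.39 and from 1.51 to 0.514, so VEC replicate 2 was close to VHL replicate 1. The ratio of VEC to VHL was 5.11 (3.37 to 8.06) and 2.94 (1.78 to 5.05). The fitted log2 change was -1.98 ± 0.48 (edgeR adjusted p = 0.00269).

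SLC22A13, which encodes OAT10, a urate and nicotinate exchanger, had 19 and 5 counts in replicate 1 and 33 and 7 in replicate 2. The ratio of VEC to VHL was 3.06 (1.11 to 10.5) and 4.22 (1.84 to 11.3), close in size to that of SLC22A7. It did not pass, with a fitted log2 change of -1.85 ± 0.77 (edgeR adjusted p = 0.222).

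SLC22A11 and SLC22A12, neighbours in RefSeq's gene order, encode the apical urate exchangers OAT4 and URAT1. SLC22A11 had 720 and 391 counts in replicate 1 and 1111 and 733 in replicate 2, or 31.1 and 21 CPM, and 24.4 and 17.9 CPM. SLC22A12 had 152 and 92 counts in replicate 1 and 356 and 176 in replicate 2, or 6.57 and 4.93 CPM, and 7.81 and 4.31 CPM. Both VHL libraries were below both VEC libraries for each gene, but neither passed. The fitted log2 changes were -0.50 ± 0.24 for SLC22A11 (edgeR adjusted p = 0.323) and -0.65 ± 0.34 for SLC22A12 (edgeR adjusted p = 0.419). DESeq2's Wald test with the replicate term called SLC22A11 (adjusted p = 0.0327).

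The classical basolateral anion uptake carriers of the proximal tubule were at or near 0. SLC22A8, which encodes OAT3, had 0 counts in all 4 libraries, as had SLC22A10. SLC22A6, which encodes OAT1, had 2 and 1 counts in replicate 1 and 0 and 1 in replicate 2. A count of 0 allows up to 3 counts, which is between 0.0658 and 0.161 CPM in these libraries. SLC22A24 and SLC22A25 had at most 14 counts in a library and were not tested.

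SLC22A9, which encodes the liver sterol conjugate carrier OAT7, was not read in either replicate 1 library, while replicate 2 gave 688 counts with VEC and 1077 with VHL. Its fitted log2 change of 0.80 ± 0.39 thus rests on 1 pair (adjusted p = 0.357). CPM at least 10-fold higher in replicate 2 than in replicate 1 in both groups was found for 3 members, SLC22A9, SLCO1A2 and SLCO5A1, and for 29.7% of all tested genes and 10.6% of the tested protein-coding genes. For SLCO1A2 the ratio of replicate 2 to replicate 1 was 33.7 with VEC and 56.9 with VHL, and for SLCO5A1 43.3 and 46.6. SLC22A9 was at least 116-fold and 164-fold higher against the limit of 3 counts. The part of RNA kind, alignment or depth in these differences was not tested.

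Of the 4 carnitine and zwitterion transporters, 3 were tested and 0 passed in the edgeR model over all genes. SLC22A5 encodes OCTN2, the sodium-coupled carnitine transporter, and SLC22A4 encodes OCTN1, the ergothioneine transporter, and they are neighbours in RefSeq's gene order. SLC22A5 had 1075 and 609 counts in replicate 1 and 2978 and 1739 in replicate 2, which is 46.4 and 32.6 CPM, and 65.3 and 42.6 CPM. SLC22A4 had 534 and 267 counts in replicate 1 and 654 and 332 in replicate 2, which is 23.1 and 14.3 CPM, and 14.3 and 8.13 CPM. VHL was below VEC within each pair for both genes. Both VHL libraries were below both VEC libraries for SLC22A5. For SLC22A4 this held barely, with 14.31 CPM in VHL replicate 1 and 14.34 in VEC replicate 2.

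The ratio of VEC to VHL for SLC22A5 was 1.42 (1.29 to 1.57) and 1.53 (1.45 to 1.63), and for SLC22A4 it was 1.61 (1.39 to 1.87) and 1.76 (1.54 to 2.02). The fitted log2 changes were -0.56 ± 0.21 (edgeR adjusted p = 0.150) and -0.75 ± 0.27 (edgeR adjusted p = 0.106). With protein-coding genes alone in the same edgeR model, where 7.13% of genes were called, both passed, with adjusted p-values of 0.0275 and 0.0370. DESeq2 with the replicate term called both lower (adjusted p = 0.00314 and 0.0432), and without its independent filtering SLC22A5 alone (0.00530, against 0.0611 for SLC22A4).

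SLC22A15, a less studied carrier of zwitterions, had 37 and 56 counts in replicate 1 and 73 and 175 in replicate 2. CPM went from 1.60 to 3.0 and from 1.60 to 4.28. Its fitted log2 change of 1.19 ± 0.44 did not pass over all genes (edgeR adjusted p = 0.133) and did with protein-coding genes alone (adjusted p = 0.0457). SLC22A16, a carnitine carrier known from testis, had at most 2 counts in a library.

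Of the other SLC22 members, 3 were tested and 0 passed. SLC22A23, an orphan member, had 138 and 182 counts in replicate 1 and 272 and 312 in replicate 2, and its fitted log2 change was 0.53 ± 0.32 (edgeR adjusted p = 0.544). SLC22A18, an orphan member of an imprinted region, had 242 and 130 counts in replicate 1 and 328 and 162 in replicate 2, with a fitted log2 change of -0.72 ± 0.32 (edgeR adjusted p = 0.267). The antisense gene SLC22A18AS had 48 and 18, and 82 and 41 counts. No source used here says whether counting was stranded, so reads of SLC22A18 and its antisense gene cannot be told apart. SLC22A17, which encodes a lipocalin-2 receptor, had between 10 and 15 counts, and SLC22A14 and SLC22A31 had at most 7.

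Of the 12 organic anion transporting polypeptides, 6 were tested, 1 rose and 0 fell. SLCO2B1 encodes OATP2B1, an uptake carrier of steroid sulphates and statins. Counts were 10 with VEC against 59 with VHL in the first pair, and 16 against 91 in the second. CPM went from 0.432 to 3.16 and from 0.351 to 2.23, with both VHL libraries above both VEC libraries. The ratio was 7.32 (3.71 to 16.1) and 6.35 (3.71 to 11.6), and the fitted log2 change was 2.75 ± 0.57 (edgeR adjusted p = 0.000176).

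SLCO3A1, which encodes the prostaglandin and thyroid hormone carrier OATP3A1, had 15 and 45 counts in replicate 1 and 152 and 211 in replicate 2. The ratio was 3.72 (2.04 to 7.19) in the first pair and 1.55 (1.25 to 1.92) in the second, and the fitted log2 change was 1.10 ± 0.43 (edgeR adjusted p = 0.181). It did not pass, and the difference in size between the pairs was not tested.

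SLCO4C1 encodes OATP4C1, the basolateral carrier of digoxin and uraemic toxins in the human proximal tubule. It had 5770 and 4213 counts in replicate 1 and 16738 and 17331 in replicate 2. CPM was 249 and 226, and 367 and 424, so VHL was lower in the first pair and higher in the second. The fitted log2 change was 0.03 ± 0.25 (edgeR adjusted p = 0.993) and became -0.0011 with DESeq2 size factors.

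SLCO4A1, a thyroid hormone carrier, had 461 and 326 counts in replicate 1 and 716 and 453 in replicate 2 (19.9 and 17.5 CPM, and 15.7 and 11.1 CPM). Its fitted log2 change was -0.35 ± 0.26 (edgeR adjusted p = 0.704). SLCO1A2, which encodes OATP1A2, had 10 and 4 counts in replicate 1 and 663 and 498 in replicate 2, and SLCO5A1, an orphan member, had 30 and 24 against 2559 and 2448. Neither passed (edgeR adjusted p = 0.861 and 0.986). SLCO1B1, SLCO1B3, SLCO1B7 and SLCO1C1 had 0 counts in all 4 libraries. SLCO1B1 and SLCO1B3 encode the main hepatocyte uptake carriers for statins. SLCO2A1, the prostaglandin transporter gene, and SLCO6A1 had at most 5 counts in a library.

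**Figure D4:**
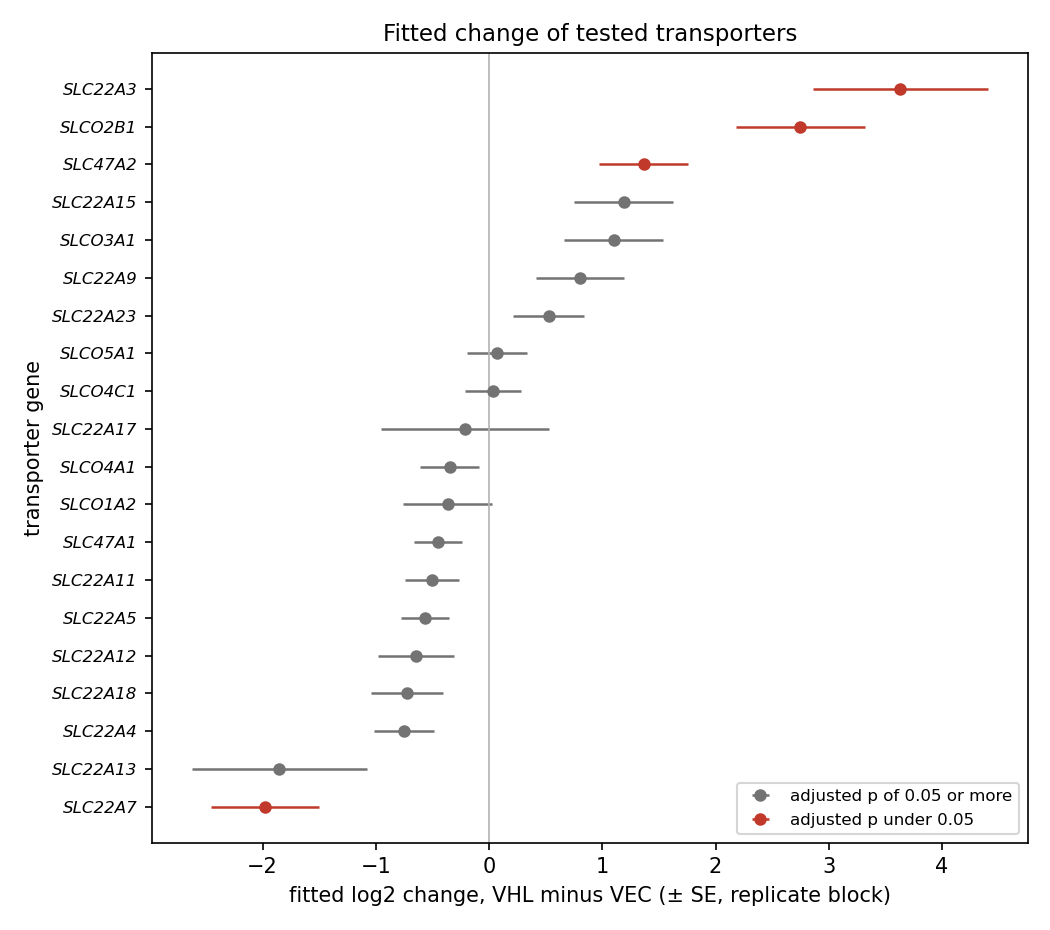
Fitted log2 change, VHL minus VEC (x), of 20 of the 21 tested transporters (y, ordered by size) from the edgeR model with group and replicate number. Points are estimates from 2 libraries per group and bars are ± 1 SE, red where the adjusted p was under 0.05. SLC22A13 lies at -1.85 beside SLC22A7 at -1.98, with a wider error of 0.77 against 0.48.

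Other genes of renal drug and urate handling were read from a list of 36 genes. Of these 29 were tested, and 1 rose and 3 fell (edgeR, 3.1% of all tested genes). Among the 9 ABC efflux pumps, ABCG2, a urate and drug exporter, rose (5.01 with VEC against 10.0 CPM with VHL, then 1.67 against 4.92; fitted log2 change 1.27 ± 0.36, edgeR adjusted p = 0.0172). VEC replicate 1 lay just above VHL replicate 2, so the groups overlapped across pairs. DESeq2 gave ABCG2 no adjusted p, and without independent filtering did not call it (adjusted p = 0.115). ABCC6, whose product mediates ATP release, fell (57.2 against 30.7 CPM, then 48.7 against 22.5; -1.0 ± 0.22, edgeR adjusted p = 0.000413). ABCC2, the apical exporter of conjugates, lay between 1404 and 2959 CPM, with a fitted log2 change of 0.03 ± 0.32 (edgeR adjusted p = 0.996) that became -0.0010 with DESeq2 size factors. For ABCB1, which encodes P-glycoprotein, it was -0.30 ± 0.23 (edgeR adjusted p = 0.720), and for ABCC4 -0.02 ± 0.25 (edgeR adjusted p = 0.997).

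SLC16A9, a carnitine efflux carrier, fell (133 against 56.5 CPM, then 69.5 against 45.4; -0.92 ± 0.22, edgeR adjusted p = 0.00173). PDZK1IP1, a small membrane protein that binds the scaffold PDZK1, fell (3.93 against 1.45 CPM, then 3.77 against 0.539; -2.12 ± 0.48, edgeR adjusted p = 0.000843). DESeq2 gave it no adjusted p either, and without independent filtering did not call it (adjusted p = 0.158). PDZK1 itself, a scaffold of apical transporters including URAT1, had a fitted log2 change of -0.50 ± 0.23 and did not pass (edgeR adjusted p = 0.277). SLC17A3, a urate and anion exporter gene, had -0.69 ± 0.27 (edgeR adjusted p = 0.182) and was called lower with DESeq2 size factors in edgeR (adjusted p = 0.0102) and by DESeq2 (4.67e-24), and SLC2A9 had 0 counts throughout.

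None of the 10 listed transcription factors passed in the edgeR model over all genes, with 7 tested. HNF4G had a fitted log2 change of -0.42 ± 0.25 (edgeR adjusted p = 0.532), and NR1H4, which encodes the bile acid receptor FXR, -0.57 ± 0.24 (edgeR adjusted p = 0.230). NR1H4 was called lower with DESeq2 size factors in edgeR (adjusted p = 0.0358) and by DESeq2 (0.000641). DESeq2 called 6 partner genes in all, where it called 8.33% of the genes it gave an adjusted p. Of these 1 was higher (SLC17A1) and 5 lower (ABCC6, NR1H4, PDZK1, SLC16A9 and SLC17A3). With protein-coding genes alone in the edgeR model, where 7.13% of genes were called, 8 of the 27 partner genes tested passed. They were the 4 called in the edgeR model over all genes with NR1H4, PDZK1, SLC17A3 and SLC29A4, these last 4 all lower. HNF4A had at most 3 counts in a library. Among the 9 proximal tubule markers, of which SLC5A2 was not tested, 2 fell and 2 rose in the edgeR model, which called 3.1% of all tested genes. CUBN changed by -1.94 ± 0.24 and MME by -0.82 ± 0.22, and AQP1 by 2.47 ± 0.69 and ANPEP by 1.79 ± 0.45. AQP1 had few counts, 8 and 32 in replicate 1 and 8 and 45 in replicate 2 (VEC, then VHL). The part of these markers in the transporter changes was not tested.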

How the data were processed

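RNA counts were the authors' deposited raw counts per gene symbol, obtained from hg19 alignments per the file headers. The submitters' processing notes name featureCounts and HOMER for these libraries. The aligner, annotation, strand setting and treatment of reads with several matches are not given in the sources used here. Alignment names differ in form between replicate 1 and replicate 2 per the file headers. H3K27ac tables were not used here, because their regions carry no positions and none could be assigned to a transporter.

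Counts were fitted in R 4.3.3 with edgeR 4.0.16. Genes passing filterByExpr (24417 of 43682) were normalised by TMM and tested two-sided with glmQLFit and glmQLFTest, group and replicate number as terms, leaving 1 residual degree of freedom. Adjusted p-values (Benjamini-Hochberg) under 0.05 were called, and SE is the absolute log2 change over the square root of F. CPM used TMM-scaled library sizes, and within-pair log2 changes a prior count of 2. The pairing comes from the molecule label, which differs with the replicate number. Deviations from the group means correlated at 0.983 between same-numbered libraries. DESeq2 1.42.0 was an alternative, run on all genes with a count. Its run without independent filtering was also limited to genes passing filterByExpr and had the Cook's distance cutoff for outliers off.

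Gene classes and gene order came from RefSeq (GRCh38.p14), whose table matched 96.4% of the symbols. Named genes were members that passed, members with a mean of at least 1 CPM, a fixed list of kidney and liver drug transporters, members at 0 throughout, called genes of the partner list and up to 6 of its other genes by mean CPM; further genes, and all others given values, were chosen after their values were seen. A member and a partner gene are counted but not reported by name here. The members and lists were chosen with earlier results of these data known.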

Additional observations from a re-analysis of the deposited data

How the results depend on the processing

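The calls depend on the replicate block. Without it edgeR called 0 genes of all, 0 members and 0 partner genes, also when each library was left out in turn (0 to 0), with unadjusted p under 0.05 for 0 of the 21 members and 22 of all genes. VHL then changed by 1.24 on the log2 scale (0.74, 1.16, 1.26 and 2.04 when each library was left out) and was not called; the value of a single pair was between 0.77 and 1.98. With the block and a stricter filter (at least 20 counts in each library of a pair) 717 of 22395 genes were called. Of the members 2 were called, SLC22A7 and SLC47A2, since SLC22A3 and SLCO2B1 were no longer tested. With protein-coding genes alone 7.13% of genes were called (977 of 13710). Of the 20 members tested there, 7 were called, the 4 of the report with SLC22A4, SLC22A5 and SLC22A15. SLC22A18 was not tested there. Of the 27 partner genes tested there, 8 were called, the 4 of the report among them. The 4 called members were also called with DESeq2 size factors and with no filter.

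DESeq2's Wald test with the block called 1143 genes (8.33% of those with an adjusted p) against 756 (397 shared). VHL was among the genes called (1.34, adjusted p = 0.0324). The test called 4 members, SLC22A4, SLC22A5, SLC22A11 and SLC47A1, all lower. Its independent filtering gave the 4 members of the report no adjusted p, at unadjusted p-values of 0.000157 (SLCO2B1), 0.000411 (SLC22A3), 0.00272 (SLC22A7) and 0.00599 (SLC47A2). Without that filtering, a setting chosen after seeing the data, 1069 genes (4.38%) and 6 members were called, SLC22A3, SLC22A7 and SLCO2B1 of edgeR's 4 with SLC22A5, SLC22A11 and SLC47A1, and neither SLC47A2 (adjusted p = 0.0848) nor VHL (1.34, adjusted p = 0.0652), SLC22A4 (0.0611), ABCG2 (0.115) or PDZK1IP1 (0.158) was; SLCO4C1 was then -0.00051 and ABCC2 -0.0010.

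Values that changed sign were those of genes not called by the edgeR model of the report; NR1H4 among them was called with protein-coding genes alone, with DESeq2 size factors and by DESeq2. SLCO4C1 became -0.0011 and ABCC2 -0.0010 with DESeq2 size factors, and ABCC2 -0.014 without the block. Leaving out each library without the block gave log2 changes from -10.84 to 11.52 for SLC22A9 (also -0.19), -5.19 to 3.86 for SLCO1A2 (also 0.70), -4.57 to 4.59 for SLCO5A1 (also -0.87), -0.49 to 0.46 for SLCO4C1 (also -0.18), -0.45 to 0.62 for ABCC2 (also -0.42), -0.44 to 0.45 for ABCC4 (also 0.26), -0.94 to 0.17 for HNF4G, -1.60 to 0.55 for NR1H4 and -0.67 to 0.15 for ABCB1. Called genes kept their direction in these fits, none of which called them, but moved: SLC22A7 was -0.67 without VEC replicate 1 and -3.06 without VHL replicate 1, SLC47A2 0.59 without VHL replicate 1 and 2.10 without VEC replicate 1, ABCG2 0.56 without VHL replicate 1, 0.61 without VEC replicate 2 and 2.16 without VEC replicate 1, and SLC16A9 -0.45 without VEC replicate 1 and -1.35 without VEC replicate 2. PDZK1IP1 lay between -2.83 and -1.44, SLC22A3 between 3.44 and 4.04, SLCO2B1 between 2.50 and 2.98 and ABCC6 between -1.23 and -0.81. A lone library is assumed there to vary like the other group. Few counts limit what can be read for the 17 members with at most 20 in every library, and the part of depth was not tested.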
